A study of Mus musculus with 4 samples.

Results

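The genes described here are 10 regulators of entry into the DNA replication phase of the cell cycle: the E2F transcription factor genes E2f1, E2f2, E2f3, E2f7 and E2f8, the pocket protein genes Rb1, Rbl1 and Rbl2, and the cyclin E genes Ccne1 and Ccne2. They were taken by symbol, and all 10 of 10 were found once each among the 32285 genes of 4 single-cell RNA matrices from mouse spleen. In the mm10 annotation they lie on chromosomes 2 (E2f1 and Rbl1), 4 (E2f2 and Ccne2), 7 (E2f8 and Ccne1), 8 (Rbl2), 10 (E2f7), 13 (E2f3) and 14 (Rb1). The libraries came from C57BL/6J female mice, 2 wild-type (WT) and 2 carrying D3TA, a heterozygous knock-in made with CRISPR/Cas9 that replaces threonine 283 of cyclin D3 (Ccnd3) with alanine globally and constitutively. The mice were 12 and 16 months old, with no age tied to a given mouse in the labels, and the D3TA mice had severe myeloproliferative neoplasm. Each library is 1 mouse, no treatment was given in the labels, and the mutation is carried by every cell type and not by blood cells alone. Because spleen was dissociated, red cells were lysed and cells were captured in droplets, the classes below are those that survived that handling. In bulk sums of spleen cells, fewer cells of a type and less RNA per cell cannot be told apart.

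E2F proteins bind the promoters of genes for DNA replication and for the cycle itself. In resting cells the pocket proteins, the products of Rb1 (pRB), Rbl1 (p107) and Rbl2 (p130), hold E2F proteins and keep those promoters quiet; cyclin D with CDK4 or CDK6, and then cyclin E with CDK2, phosphorylate the pocket proteins and release the E2Fs. E2f1, E2f2 and E2f3 are known as activators, while E2f7 and E2f8 are atypical members that repress the same promoters without a DP partner and are themselves E2F targets; in red cell precursors, pRB and E2F2 are known to be needed for an orderly exit from the cycle. Phosphorylation of the altered threonine marks cyclin D3 for destruction.

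Promoter sequences were compared because several of the genes moved together across cycle states below. Of the 10 genes, 8 had an entry in the RefSeq promoter table of the assembly GRCm38.p6, and the 250 bases before the annotated start were searched on both strands for the E2F-type words TTTGGCGC, TTTGCCGC, TTTCGCGC and TTTCCCGC and for the word TTTGAA of the cell cycle homology region (CHR); no match overlapped another. These genes had 10 entries. An E2F-type word stood in 3 of the 10 windows, against 1.86% of the 32851 windows in the table, and TTTGAA in 4, against 16.0%. The E2f1 window (chr2:154569427-154569676, minus strand) lay inside the gene of the mm10 annotation, which reaches to base 154569892. The bases before that outer start of E2f1 were not searched. The windows shown are those of the genes with an E2F-type word, E2f3 (chr13:29986064-29986313, minus strand), E2f7 (chr10:110745189-110745438, plus strand) and Rbl1 (chr2:157204535-157204784, minus strand), and of 2 genes with TTTGAA alone, E2f8 (chr7:48881597-48881846, minus strand) and Rbl2 (chr8:91069807-91070056, plus strand). Capitals mark the words on either strand, each line runs 5′ to 3′ along the gene, and a match is a description of these letters and not of binding.
E2f3: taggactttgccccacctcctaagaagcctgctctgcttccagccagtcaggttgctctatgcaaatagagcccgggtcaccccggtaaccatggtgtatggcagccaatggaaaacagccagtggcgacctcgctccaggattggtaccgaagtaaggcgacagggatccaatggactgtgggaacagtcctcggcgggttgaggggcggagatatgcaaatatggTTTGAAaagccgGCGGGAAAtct
E2f7: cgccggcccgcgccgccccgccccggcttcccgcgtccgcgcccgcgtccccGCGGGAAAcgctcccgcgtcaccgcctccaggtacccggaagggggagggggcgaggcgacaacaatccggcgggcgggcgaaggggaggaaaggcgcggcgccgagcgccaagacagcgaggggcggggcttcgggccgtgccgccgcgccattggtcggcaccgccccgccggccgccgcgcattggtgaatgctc
Rbl1: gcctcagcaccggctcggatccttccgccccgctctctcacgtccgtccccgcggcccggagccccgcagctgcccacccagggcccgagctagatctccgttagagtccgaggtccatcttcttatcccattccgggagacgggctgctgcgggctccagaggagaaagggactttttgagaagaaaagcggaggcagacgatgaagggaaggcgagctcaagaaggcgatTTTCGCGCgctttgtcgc
E2f8: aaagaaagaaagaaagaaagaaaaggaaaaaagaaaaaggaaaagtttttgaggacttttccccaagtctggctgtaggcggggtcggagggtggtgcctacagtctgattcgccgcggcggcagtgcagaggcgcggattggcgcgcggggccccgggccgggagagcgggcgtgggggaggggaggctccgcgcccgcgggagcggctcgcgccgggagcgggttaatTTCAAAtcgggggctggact
Rbl2: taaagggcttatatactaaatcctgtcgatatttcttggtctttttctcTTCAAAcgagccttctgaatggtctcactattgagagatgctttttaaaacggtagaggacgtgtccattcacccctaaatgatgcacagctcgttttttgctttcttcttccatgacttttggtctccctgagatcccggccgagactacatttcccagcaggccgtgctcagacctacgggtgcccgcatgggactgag
The word of Rbl1 lay 18 bases before the start and that of E2f7 198 bases before it, on opposite strands. The first entry of E2f3 held both kinds, 11 and 23 bases before its start, and its second entry held neither. E2f8 and Rbl2 shared the reversed word TTCAAA, at 20 and 201 bases, although E2f8 was highest in cycling cells and Rbl2 in cells without cycle markers, as described below. The other match was in the second entry of E2f2, 31 bases before that start.

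After filters and removal of 1615 predicted doublets, 52330 of 64410 barcodes were analysed: 22286 and 7679 cells in WT replicates 1 and 2, and 11792 and 10573 in D3TA replicates 1 and 2. Libraries held 73525772 to 125003271 unique molecular identifiers (UMIs, 1 per captured transcript), and pairs of libraries shared 18 to 87 cell barcodes. WT replicate 1 stood apart, with a median of 1393 UMIs per cell against 7559 to 7919 in the other 3, and calls of a member that were lost without it are named beside the result. Cell classes were gated on 170 marker genes that leave out the 10 members, and B cells held 65.5% and 64.3% of the WT UMIs but 25.2% and 37.1% of those of D3TA. The neutrophil lineage held 1.02% and 1.08% of the WT UMIs and 34.1% and 22.1% of those of D3TA, so whole-spleen values move with this mix. Levels are given as CPM, the UMIs of the gene per 1000000 UMIs of the cells summed, and are compared within a gene only, since a droplet count is not a level per length. With 2 libraries a group, an exact permutation test cannot give a p below 0.333, so tests are edgeR's quasi-likelihood test over all genes with Benjamini-Hochberg adjustment, and a gene is called at an adjusted p under 0.05. Random order alone keeps 2 such groups from overlapping with a probability of 0.333. A lack of overlap between the genotypes is therefore given as a description only.

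Across whole spleens, 4 of the 10 genes were higher in D3TA: the activator E2f1, both atypical genes E2f7 and E2f8, and Ccne2. The share called over all genes tested was 6.08%. E2f1 stood at 5.12 and 6.73 CPM in the WT libraries and at 18.4 and 15.7 CPM in the D3TA libraries, a fitted log2 fold change of 1.62 ± 0.24 (SE, n = 2 against 2; edgeR adjusted p = 0.0275). Both D3TA values lay above both WT values. E2f2, which the same test did not call (log2 fold change 1.25 ± 0.27, adjusted p = 0.0682), also had groups that did not overlap, with 25.9 and 38.4 CPM in WT and 79.4 and 63.9 CPM in D3TA. E2f3 ran from 45.8 to 65.4 CPM over the 4 libraries and its groups overlapped.

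The repressor-type genes moved most. E2f7 had 2.80 and 3.69 CPM in WT and 18.2 and 19.0 CPM in D3TA (log2 fold change 2.60 ± 0.23, edgeR adjusted p = 0.00875). E2f8 had 5.80 and 9.03 CPM in WT and 43.8 CPM in each D3TA library (log2 fold change 2.65 ± 0.27, edgeR adjusted p = 0.0114). In both genes the groups were far apart relative to the spread within them, and both remained called without each library in turn. Of the E2f8 UMIs, 57.2% and 52.6% came from the neutrophil lineage in D3TA and 3.78% and 3.61% in WT.

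The pocket protein genes did not pass the test. Rb1 stood at 202, 227, 177 and 230 CPM in WT replicates 1 and 2 and D3TA replicates 1 and 2, and Rbl2 at 66.8, 75.6, 70.3 and 61.7 CPM. Both sets overlapped between the genotypes. Rbl1, the pocket protein gene that is itself an E2F target, had 43.2 and 40.8 CPM in WT and 54.9 and 62.1 CPM in D3TA, groups that did not overlap, with an unadjusted p under 0.05 but an adjusted p of 0.101 (log2 fold change 0.56 ± 0.14).

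Of the cyclin E genes, Ccne2 had 4.11 and 6.22 CPM in WT and 17.1 and 16.7 CPM in D3TA (log2 fold change 1.80 ± 0.27, edgeR adjusted p = 0.0264). Ccne1 had 6.99 and 8.65 CPM in WT and 18.8 and 15.4 CPM in D3TA, also without overlap, and missed the threshold (log2 fold change 1.22 ± 0.24, edgeR adjusted p = 0.0507). The E2f1 call was lost without WT replicate 1 (log2 fold change 1.41, adjusted p = 0.138) or WT replicate 2 (1.82, adjusted p = 0.103), and the Ccne2 call without WT replicate 1 (1.51, adjusted p = 0.101), WT replicate 2 (2.12, adjusted p = 0.0685) or D3TA replicate 1 (1.71, adjusted p = 0.0551). On simulated counts, this fit over 18344 genes recovered 62% of 4-fold and 12% of 2-fold changes, and 26% of its calls were false.

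**Figure D1:**
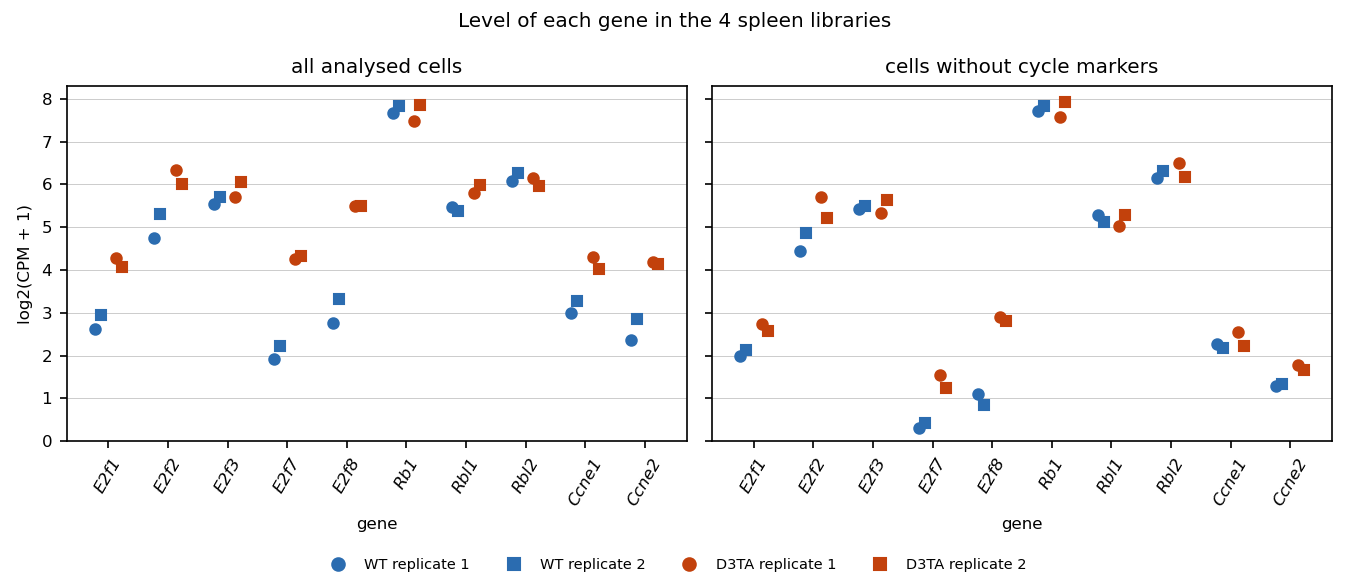
Level of each of the 10 genes on the log2(CPM + 1) scale in the 4 libraries, over all cells (first panel) and over cells without cycle markers (second panel); each point is 1 library, with colour for genotype and shape for replicate. E2f7 and E2f8 separate the genotypes most in both panels, and Rb1 and Rbl2 overlap in both.

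Cells were also sorted by cycle state, from S and G2/M marker genes that leave the 10 members out: after thinning every cell to 1000 UMIs, at least 3 of 20 markers of a phase set the state, and at most 1 of each set cells without cycle markers. Of cells with at least 1000 UMIs, 4.27% and 3.11% were in S or G2/M in the WT libraries and 18.1% and 12.7% in the D3TA libraries. The share of E2f7 UMIs found in those cells was much the same in all 4 libraries, 87.1%, 85.6%, 83.1% and 86.3%, with cycling cells few or many. For E2f8 the shares were 73.4%, 79.2%, 82.1% and 84.5%. Rb1 and Rbl2 had most of their UMIs elsewhere: cycling cells held 5.55% to 30.01% of Rb1 UMIs and 4.49% to 16.6% of Rbl2 UMIs. Most UMIs of all genes lay elsewhere too. S and G2/M cells held 2236192 and 2889961 of 77553357 UMIs in WT replicate 1, where the Rb1 share was 5.55%. In D3TA replicate 1, where it was 30.01%, they held 16137005 and 25344142 of 125003271 UMIs. The Rb1 shares were thus near those of all UMIs in these 2 libraries.

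Among cells without cycle markers, none of the 10 genes was called between the genotypes, where 0.850% of all genes were. E2f8 stood at 1.15 and 0.796 CPM in WT and 6.48 and 6.02 CPM in D3TA (log2 fold change 2.77 ± 0.32, edgeR adjusted p = 0.0507). E2f7 stood at 0.236 and 0.343 CPM in WT and 1.93 and 1.37 CPM in D3TA (log2 fold change 2.60 ± 0.45, edgeR adjusted p = 0.105). Both pairs of groups were apart, at levels a small fraction of those in cycling cells. E2f1, E2f2, E2f7 and E2f8 were the 4 members with an unadjusted p under 0.05, and DESeq2 called 2 members. Whether cells that cycled below the marker threshold are among them was not tested.

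Comparing the states directly, 8 of the 10 genes were higher in S than in cells without cycle markers over all cells, Rbl2 was lower and Rb1 was not called, where 61.0% of all genes were called; between G2/M and cells without cycle markers (58.6% called) the same 8 were higher and Rbl2 was lower. Without thinning, described below, E2f2 lost its S call (-0.052). E2f1, E2f3, Ccne1 and Ccne2 were also higher in S than in G2/M (10.4% called). E2f1 stood at 2.98, 3.35, 5.66 and 4.97 CPM in cells without cycle markers, at 47.8, 61.1, 62.3 and 64.6 CPM in S and at 13.5, 18.7, 22.3 and 21.8 CPM in G2/M, in the order WT replicates 1 and 2, D3TA replicates 1 and 2. Every S value was above every G2/M value. The fitted log2 fold change of S over G2/M was 1.53 ± 0.13 (n = 4 libraries as blocks, edgeR adjusted p = 0.000603).

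Ccne2 showed the same order, at 60.4, 80.2, 68.2 and 75.7 CPM in S and 16.6, 28.2, 23.7 and 34.1 CPM in G2/M, 1.39 ± 0.17 higher in S on the log2 scale (edgeR adjusted p = 0.002). For Ccne1 it was 1.02 ± 0.15 (edgeR adjusted p = 0.00434) and for E2f3 0.61 ± 0.10 (edgeR adjusted p = 0.00713). The order depended on how the states were set. When markers were counted in all UMIs of a cell without thinning, an alternative added after seeing the data, these 4 calls were lost: the log2 fold changes were 0.28 for E2f1 (adjusted p = 0.298), -0.19 for E2f3, -0.028 for Ccne1 and 0.0037 for Ccne2. The E2f3 call was also lost without any of WT replicate 2, D3TA replicate 1 or D3TA replicate 2, with log2 fold changes of 0.52, 0.55 and 0.60.

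E2f7 and E2f8 were high in both phases and much lower in cells without cycle markers. E2f7 had 0.236 to 1.93 CPM in cells without cycle markers, 36.7 to 55.9 CPM in S and 34.6 to 69.4 CPM in G2/M (log2 fold change of S 5.79 ± 0.41 and of G2/M 5.91 ± 0.42). E2f8 had 62.6 to 130 CPM in S and 61.6 to 154 CPM in G2/M (log2 fold changes 5.15 ± 0.43 and 5.22 ± 0.43). The ranges of the 2 phases overlapped in both genes and neither was called between them. Rbl1 rose in both phases by the same fitted 1.70 ± 0.09, from 31.5 to 38.3 CPM up to 90.5 to 127 CPM. TMM scaling moves the median of all genes from plain CPM by 0.16 on the log2 scale for G2/M over all cells, 0.11 for G2/M of B cells, and -0.14 and -0.19 for S and G2/M of immature neutrophils; the directions named for these states are those of plain CPM too.

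Rbl2 went the other way, from 69.8, 78.9, 89.3 and 71.3 CPM in cells without cycle markers to 46.5, 44.98, 38.2 and 34.0 CPM in S (log2 fold change -0.88 ± 0.12, edgeR adjusted p = 0.00013). Its groups did not overlap. Without thinning, the value was -0.20 and was no longer called.

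Rb1 was not called over all cells in either phase, but its direction was not the same in each class. In B cells it was lower in S (log2 fold change -0.49 ± 0.18, edgeR adjusted p = 0.0394) and in G2/M (-0.97 ± 0.18, edgeR adjusted p = 0.000726), where 43.7% and 48.9% of genes were called. It stood there at 241, 263, 329 and 339 CPM without cycle markers, 135, 160, 274 and 316 CPM in S, and 124, 63.9, 209 and 224 CPM in G2/M. Each library was lower in both phases than in its own cells without cycle markers. In immature neutrophils of D3TA it was higher in S (0.84 ± 0.08) and G2/M (0.45 ± 0.07), where 60.8% and 62.3% of genes were called, from 76.1 and 113 CPM to 163 and 227 CPM in S and 124 and 171 CPM in G2/M. In monocytes of D3TA, Rb1 was lower in S (-0.65 ± 0.19; 38.3% of genes called) and not called in G2/M (24.0% called). The difference between these classes was not tested, and without thinning the B cell value in S was 0.012.

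The phase order was present inside the myeloid classes with and without thinning. Between S and G2/M, 14.8% of genes were called in monocytes and 24.1% in immature neutrophils. E2f1 was higher in S in monocytes by 2.48 ± 0.32 on the log2 scale (66.6 and 96.1 CPM in D3TA replicates 1 and 2, against 16.6 and 7.05 CPM in G2/M) and in immature neutrophils by 2.07 ± 0.12 (62.3 and 74.5 CPM against 15.7 and 16.3 CPM). Ccne2 was higher in S by 1.95 ± 0.30 and 1.94 ± 0.11 in these classes. Without thinning, E2f1 differed by 2.00 and 2.33 and Ccne2 by 1.18 and 2.15. In B cells (3.93% called) E2f1 and E2f3 were called, at 1.55 ± 0.21 and 0.63 ± 0.12, and without thinning both had the opposite sign, at -0.091 and -0.40.

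**Figure D2:**
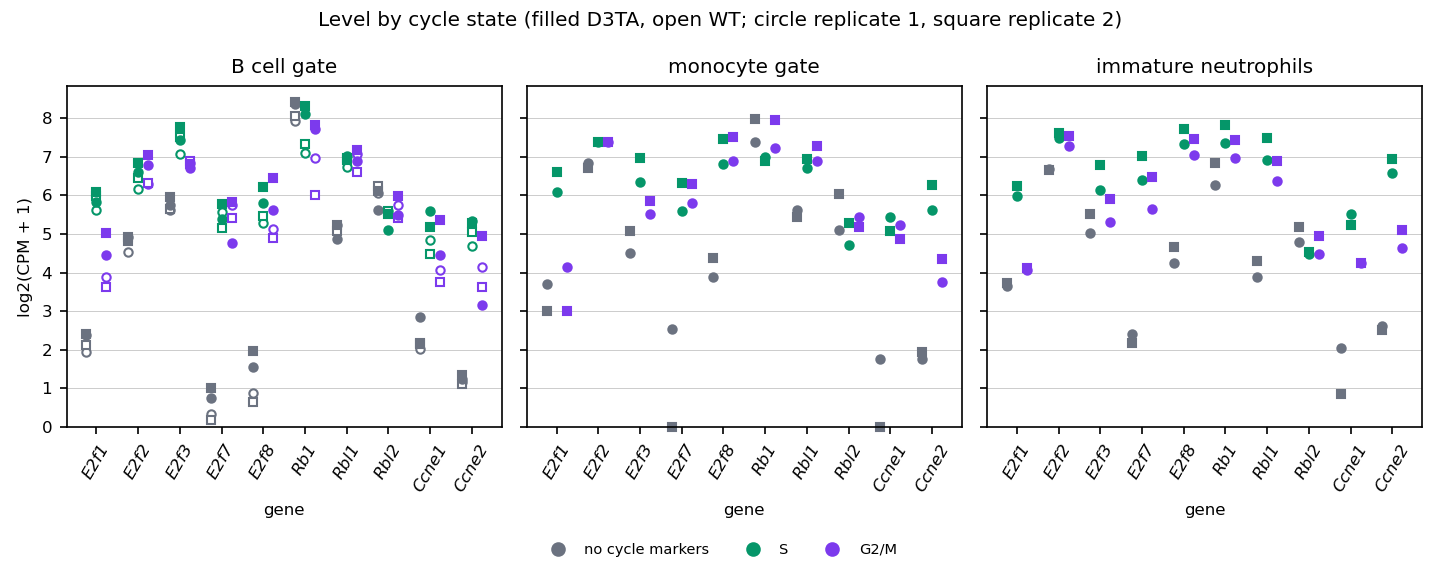
Level on the log2(CPM + 1) scale by cycle state (colour) in the B cell gate, the monocyte gate and immature neutrophils; each point is 1 library, filled for D3TA and open for WT. E2f1 and Ccne2 peak in S in the D3TA monocytes and immature neutrophils, E2f7 and E2f8 stay high in both phases, and Rbl2 is lower in S than without cycle markers in B cells and immature neutrophils.

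Between cell classes, erythroid cells (gated on hemoglobin and other red cell genes) held the highest cyclin E levels. Set against the mean of the other 7 classes, all 10 genes were called in erythroid cells, 9 higher and Rbl2 lower, where 71.6% of all genes were called. Ccne1 stood there at 73.4, 116, 117 and 102 CPM (log2 fold change 3.94 ± 0.27) and Ccne2 at 62.3, 87.7, 72.5 and 64.2 CPM (3.897 ± 0.32), in the order WT replicates 1 and 2, D3TA replicates 1 and 2. The highest Ccne1 value in any other gated class was 30.5 CPM, in monocytes of D3TA replicate 1. With 2.21% to 5.95% of the UMIs of a library, erythroid cells gave 23.2% to 47.8% of its Ccne1 UMIs and 21.2% to 50.3% of its Ccne2 UMIs. From 61.4% to 86.3% of erythroid cells were cycling by their markers, more than in any other class with a fit, and how much of the difference goes with that share was not tested.

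Of the 8 classes, erythroid cells were also at or near the top for E2F genes. E2f8 had 92.0, 143, 108 and 134 CPM in erythroid cells (log2 fold change 4.10 ± 0.31), and E2f2 144, 240, 169 and 127.8 CPM (2.38 ± 0.17). The neutrophil lineage was the other class rich in E2f2, with 73.6 and 99.7 CPM in WT and 122 and 139 CPM in D3TA (2.03 ± 0.17; 63.0% of genes called). Monocytes followed with 84.9, 76.7, 157 and 140 CPM (1.42 ± 0.19; 36.6% called). B cells, by contrast, had 24.5 to 39.5 CPM and T cells 9.11 to 29.3 CPM of E2f2.

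Rbl2 marked the other end of the range. T cells had 94.5, 126, 246 and 118 CPM (log2 fold change 1.62 ± 0.14, edgeR adjusted p = 1.79e-10; 56.6% of genes called), with D3TA replicate 1 standing above the other 3. Erythroid cells had 26.7 to 35.4 CPM (-0.72 ± 0.18, edgeR adjusted p = 0.000721). The lowest T cell value was thus above the highest erythroid value. T cells were also the class in which most members were called lower than elsewhere, 8 of 10, with E2f1 at 1.70, 2.80, 5.59 and 3.08 CPM (-2.32 ± 0.27).

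Leaving out erythroid cells, which had 227, 360, 280 and 291 CPM of Rb1, B cells held the highest Rb1 level in every library, at 233, 258, 315 and 332 CPM (log2 fold change 0.74 ± 0.12; 52.7% of genes called). Rbl2 was called there too (0.37 ± 0.15, edgeR adjusted p = 0.0424) but that call was lost in 7 alternatives, among them the fit without WT replicate 1 (0.30). In plasma cells (47.9% called) E2f7, E2f8 and Rbl1 were called lower. In macrophages (43.5% called) 5 members were called lower, but the numbers behind that are small, with 0 UMIs of E2f8 in 3 of 4 libraries. The 5 were E2f2, E2f8, Rb1, Rbl1 and Ccne1. Without WT replicate 1, Rb1 (-0.12, adjusted p = 0.66) and Ccne1 (-1.68, adjusted p = 0.0841) were no longer called, the Rb1 call was lost without any 1 library, and E2f2 alone was called in every such refit. In dendritic cells (34.9% called) only E2f2 was called, lower by a log2 fold change of -0.77 ± 0.23, and the call was lost without either D3TA library. Without D3TA replicate 1 the fits of E2f7 and E2f8 in B, T and plasma cells gave SEs of 7.23 to 978 on the log2 scale, no usable estimate, and say nothing about those calls. Without D3TA replicate 2, E2f1 was no longer called in neutrophils or monocytes, nor E2f7 in monocytes. In B and T cells Ccne1 and Ccne2 were not called without D3TA replicate 2, and neither was E2f3 in T cells.

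**Figure D3:**
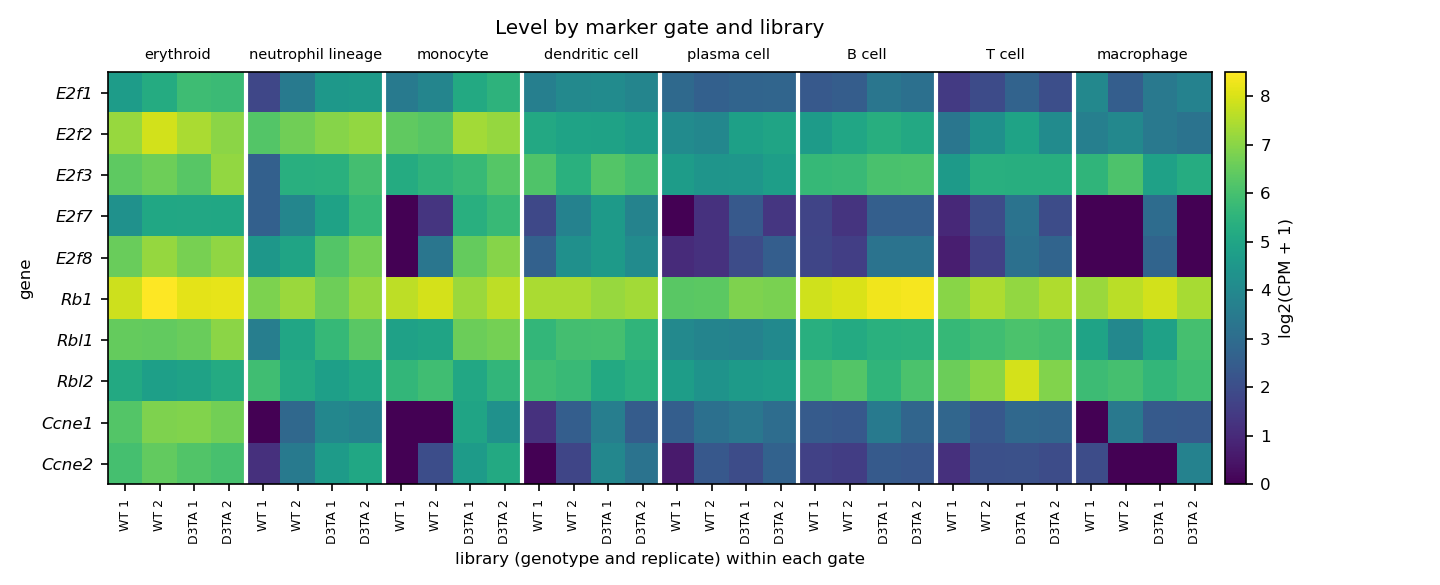
Heat map of log2(CPM + 1) for the 10 genes in 8 gated classes and 4 libraries; brighter colour is a higher level, to be compared along a gene. Erythroid columns are brightest for Ccne1, Ccne2 and E2f8, and T cell columns are brightest for Rbl2.

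Within the neutrophil lineage, cells were staged by granule genes: precursors carry azurophil granule genes, immature cells specific granule genes, transitional cells both specific and late genes, and mature cells late genes alone. WT spleens held almost only mature cells, 186 of 208 and 118 of 136, so the order of stages was fitted in the 2 D3TA libraries alone. E2f1 stepped down from precursors to immature and again to mature cells, from 45.9 and 46.6 CPM in precursors of D3TA replicates 1 and 2 to 23.1 and 24.3 CPM in immature and 2.42 and 5.05 CPM in mature cells. E2f2 went the opposite way, from 32.7 and 51.2 CPM in precursors to 139 and 155 CPM in immature and 122 CPM in both libraries in mature cells. From precursors to immature cells the 2 activator genes thus went opposite ways in both libraries, counted over all cells of a stage.

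In the fit of immature against precursor cells, 68.9% of all genes were called. E2f2 rose by 2.22 ± 0.14 on the log2 scale (edgeR adjusted p = 9.12e-13) and E2f1 fell by 0.61 on the same scale (SE 0.16, adjusted p = 0.00163). Rb1 rose by 1.52 ± 0.12, from 47.6 and 76.7 CPM to 113 and 159 CPM. E2f7 rose by 1.26 ± 0.18, from 18.5 and 36.6 CPM to 37.7 and 62.2 CPM. In these 3 rising genes each library was higher in immature cells by CPM as well.

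E2f8, Rbl1 and Rbl2 were called higher in immature cells too, at 0.68 ± 0.15, 0.45 ± 0.14 and 0.41 ± 0.16. TMM scaling, which sets extreme genes aside, puts the median of all genes 0.31 higher on the log2 scale than plain CPM does in this comparison. By plain CPM the immature to precursor ratios of D3TA replicates 1 and 2 were 1.23 and 0.917 for Rbl1 and 1.13 and 0.921 for Rbl2, so the second library went the other way. The Rbl2 call was lost with median-ratio factors (0.29, adjusted p = 0.105). E2f3, Ccne1 and Ccne2 were not called.

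The E2f2, E2f7 and Rb1 steps were also present inside S-state cells alone. From precursors to immature cells in S, E2f2 went from 29.5 and 62.4 CPM to 177 and 194 CPM, E2f7 from 19.7 and 34.2 CPM to 82.8 and 127.7 CPM, and Rb1 from 50.8 and 83.6 CPM to 163 and 227 CPM. The ratios were 5.98 and 3.11 for E2f2, 4.20 and 3.73 for E2f7, and 3.22 and 2.71 for Rb1. E2f8, Rbl1, Ccne1 and Ccne2 were also higher in immature cells in S, with ratios of 2.14 and 1.89, 2.98 and 1.77, 1.65 and 2.59, and 1.95 and 1.84. E2f1 did not step down there, with ratios of 0.904 and 1.03, so its fall over all cells of the stages was not seen inside S. None of these ratios has a test. Precursors were 163 and 72 cells with median UMIs of 32098 and 34896.5, against 12706 and 11731 in immature cells, and 74.5% and 76.4% of them were cycling against 40.4% and 41.7%.

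From immature to mature cells, 68.0% of genes were called and most members fell. E2f7 fell by 4.92 on the log2 scale (SE 0.33), to 0.518 and 3.21 CPM, and Ccne2 by 3.81 (SE 0.27), to 1.90 and 1.84 CPM. E2f8 fell by 3.20 (SE 0.21), Ccne1 by 2.99 (SE 0.35), E2f1 by 2.69 (SE 0.27) and Rbl1 by 2.52 (SE 0.18). E2f3 and Rb1 fell less, by 0.75 (SE 0.15) and 0.44 (SE 0.12). Rbl2 alone rose, by 1.02 ± 0.15, from 23.5 and 30.5 CPM to 45.6 and 47.8 CPM, and E2f2 was not called. Mature neutrophils, of which 0.162% and 0.396% were cycling, still held E2f2, an activator gene, at 122 CPM in each library. TMM scaling puts the median of all genes 0.21 higher than plain CPM does here, and no direction named changes without it.

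E2f2 was also present in mature neutrophils of WT, at 85.7 and 115 CPM, both below the 122 CPM of each D3TA library (log2 fold change 0.62 ± 0.22, edgeR adjusted p = 0.195). None of the 10 genes was called between the genotypes in mature cells, where 2.80% of genes were called. E2f1, E2f7, Ccne1 and Ccne2 were too low there to be tested. E2f8 stood at 4.76 and 0 CPM in WT and at 8.12 and 12.9 CPM in D3TA, and Rbl2 at 73.0 and 47.3 CPM against 45.6 and 47.8 CPM. The E2f8 groups did not overlap and the Rbl2 groups did; TMM scaling puts the median of all genes 0.27 higher than plain CPM does in this comparison.

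**Figure D4:**
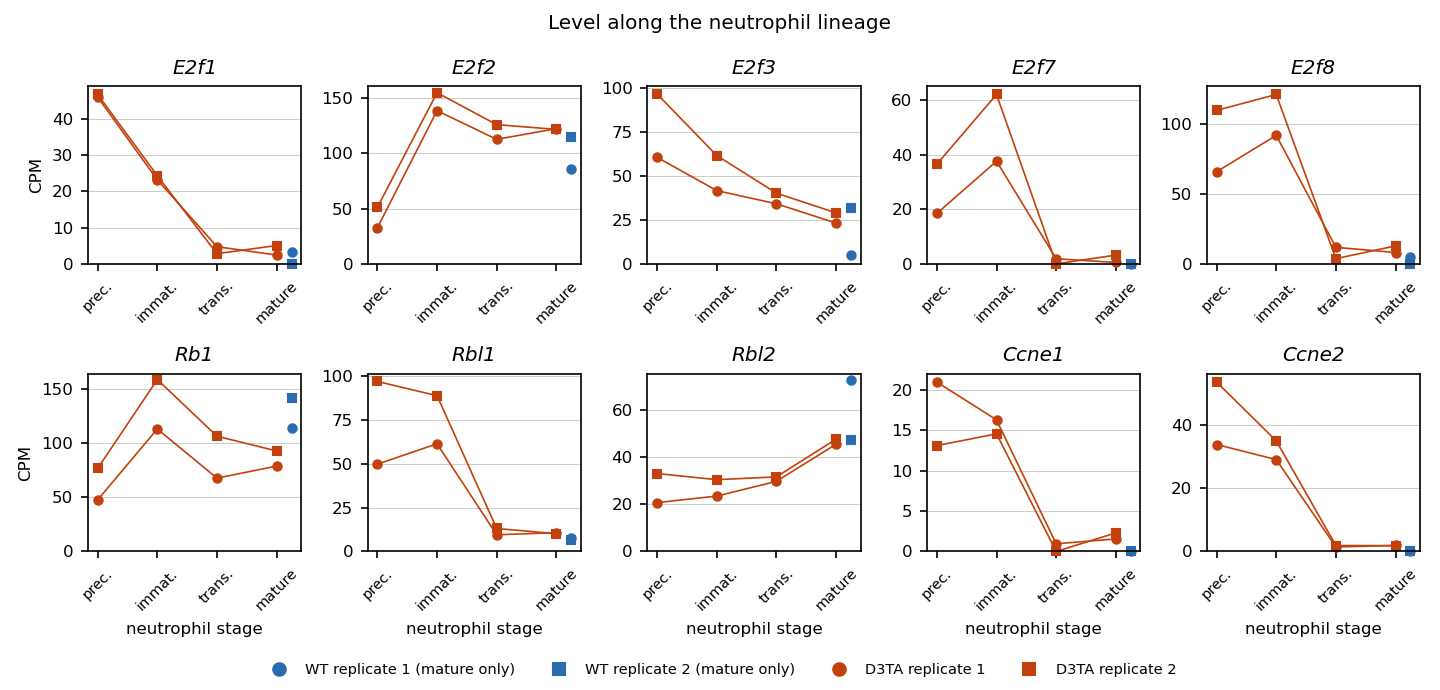
CPM of each member over the precursor, immature, transitional and mature stages of the neutrophil lineage, 1 line per D3TA library, with the WT mature cells as separate points. E2f1 declines from precursors on, E2f2 climbs from precursors to immature cells and stays up, E2f7 peaks in immature cells, and Rbl2 is highest in mature cells.

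E2f2 and Rb1 also differed between erythroid cells rich and poor in globin, split at 180 globin UMIs per 10000 UMIs. Globin-rich cells had 449, 441, 331 and 377 CPM of E2f2 in WT replicates 1 and 2 and D3TA replicates 1 and 2, against 23.6, 18.4, 39.2 and 47.6 CPM in globin-poor cells, ratios of 19.1, 23.9, 8.46 and 7.93. Rb1 had 503, 592, 447 and 649 CPM against 119, 105, 145 and 176 CPM, ratios of 4.24, 5.64, 3.08 and 3.69. All 4 libraries went the same way in both genes, and no test was fitted between these groups. In the same order, globin-poor cells were 76, 23, 64 and 79, with median UMIs of 5298, 68423, 61450.5 and 65725. Globin-rich cells had medians of 1354, 9375.5, 2527 and 5801. By markers, 73.7%, 63.6%, 96.6% and 94.9% of globin-poor cells and 50%, 71.25%, 54.2% and 76.5% of globin-rich cells were cycling. The part of depth and cycling in these ratios was not tested. Inside S-state cells of the D3TA libraries, the ratios were 5.65 and 7.43 for E2f2 and 2.87 and 3.10 for Rb1. Rbl2 was lower in globin-rich cells in every library, with ratios of 0.636 to 0.821, but inside S its ratios were 1.12 and 0.677, so D3TA replicate 1 went the other way there.

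E2f2 was also high in erythroid cells outside the cycle. Erythroid cells without cycle markers, enough in number in WT replicate 1 and D3TA replicate 1 only, had 414 and 339 CPM of E2f2 with 0 UMIs of E2f7 in both. In the fit over these 2 libraries, E2f2 was lower in S (log2 fold change -2.79 ± 0.36; 36.6% of genes called) and in G2/M (-2.36 ± 0.35; 35.4% called), while Ccne1 and Ccne2 were higher in S, by 3.94 ± 0.77 and 4.66 ± 0.98. When 5 markers set a state, the E2f2 values were -1.61 and -0.70 and were no longer called, and without thinning the G2/M value was -0.40 (adjusted p = 0.694) and the Ccne2 value in S 1.83 (SE 1.01, adjusted p = 0.183), neither called. The states also differed in globin: 34 of 36 and 91 of 91 cells without cycle markers were globin-rich, against 14 of 39 and 34 of 65 cells in S. Inside globin-rich cells E2f2 was not lower in G2/M, at 609.8 and 405 CPM against 461 and 339 CPM without cycle markers in these libraries. In S, globin-rich cells of D3TA replicate 1 had 238 CPM, below its 339 CPM without cycle markers. WT replicate 1 had only 14 globin-rich cells in S, too few for a level. In the other classes with state fits, E2f2 was higher in S than without cycle markers: B cells by 1.73 ± 0.13, monocytes by 0.63 ± 0.17 and immature neutrophils by 0.65 ± 0.08. The B cell value was 0.17 and not called without thinning, and the difference between classes was not tested.

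Between the genotypes within a class, the monocyte gate held the most changed members, 6 of 10, where 12.0% of genes were called. The gate took 89 and 59 WT cells and 283 and 141 D3TA cells, and all 12 of its own markers were detected in each library. E2f1 stood at 10.1 and 13.5 CPM in WT and 34.8 and 43.6 CPM in D3TA (log2 fold change 1.67 ± 0.41, edgeR adjusted p = 0.0167). E2f8 stood at 0 and 9.02 CPM in WT and 89.8 and 122 CPM in D3TA (4.33 ± 0.56, edgeR adjusted p = 0.000226), and Rbl1 at 28.3 and 30.1 CPM and 95.6 and 105 CPM (1.75 ± 0.31, edgeR adjusted p = 0.00232). No D3TA value reached down to a WT value in these genes. The WT value of E2f8 rests on 0 and 6 UMIs, and its fitted change ran from 3.53 to 11.1 with 1 library left out, called each time.

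E2f7 and cyclin E were almost unseen in WT monocytes. E2f7 gave 1 UMI in both WT libraries together and 327 in D3TA, a ratio of 50.7 with a counting interval of 9.03 to 2008. Ccne2 gave 2 and 206 UMIs, a ratio of 16.0 with an interval of 4.36 to 133. Ccne1 gave 0 and 202 UMIs and was at least 3.07-fold higher, taking the lowest D3TA library against 3 UMIs in the WT library with the highest floor. All 3 were called (edgeR adjusted p = 0.000214, 0.00265 and 0.00182), and these intervals cover counting error only. E2f2 had 84.9 and 76.7 CPM in WT and 157 and 140 CPM in D3TA without overlap but was not called (0.87 ± 0.28, adjusted p = 0.062). E2f3, Rb1 and Rbl2 were not called.

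The monocyte gate was not the same mixture of cells in both genotypes. By their markers 0% and 1.69% of WT monocytes and 51.6% and 41.6% of D3TA monocytes were cycling. Specific granule genes of immature neutrophils, 9 genes with 4 and 6 detected in WT and 9 in each D3TA library, summed to 7.66 and 6.99 per 10000 UMIs in WT and 32.1 and 21.2 in D3TA. Azurophil granule genes (8, with 5 and 6 detected in WT and all in D3TA) summed to 5.50 and 7.05 against 29.4 and 29.97. The part of these cells in the result was not tested. In monocytes without cycle markers E2f7 had 0, 1.56, 4.84 and 0 CPM and E2f8 0, 9.33, 13.7 and 19.7 CPM. The gate also had many cells near its edge: 66, 53, 326 and 155 cells lay within 1.25-fold of the threshold, against 178, 93, 483 and 220 at or above it. The E2f1 call was lost with DESeq2 (1.72, adjusted p = 0.11) and when WT replicate 1 (1.52, adjusted p = 0.0921) or WT replicate 2 (1.92, adjusted p = 0.0754) was left out, and the Rbl1 call without WT replicate 2 (1.80, adjusted p = 0.0635).

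In the neutrophil lineage as a whole 5 of 10 members were higher in D3TA, where 21.7% of genes were called. E2f8 had 21.6 and 30.3 CPM in WT and 73.4 and 104 CPM in D3TA (log2 fold change 1.85 ± 0.29, edgeR adjusted p = 0.00245). E2f7 had 5.08 and 13.9 CPM against 28.5 and 50.8 CPM (2.13 ± 0.47), and Ccne2 1.27 and 10.1 CPM against 24.6 and 32.4 CPM (2.40 ± 0.56). Rbl1 went from 11.4 and 31.6 CPM to 50.4 and 78.6 CPM (1.65 ± 0.41) and E2f1 from 2.54 and 10.1 CPM to 22.2 and 23.96 CPM (1.96 ± 0.49). The groups did not overlap in any of the 5, which the test had picked on the same values. The share of all genes without overlap was not counted. With 1 library left out the fitted changes ran from 1.56 to 4.71 for Ccne2, 1.57 to 3.17 for E2f7, 1.09 to 2.71 for Rbl1 and 1.27 to 3.42 for E2f1, and the E2f1 call was lost without WT replicate 1 (1.27, adjusted p = 0.0792). Stage and genotype cannot be told apart here, since 3.49% and 2.36% of the WT lineage and 25.6% and 29.3% of the D3TA lineage were cycling and WT had few cells before the mature stage.

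In the remaining classes no member was called, but some members were too low to be tested. The fits covered 3 members in macrophages, 8 in dendritic cells and 9 in plasma cells, and all members in the others. On simulated counts, they recovered 2% of 2-fold changes in B cells, 3% in T cells and 4% in macrophages. The values were 15% in plasma cells, 19% in erythroid cells and 23% in dendritic cells. A missing call therefore does not show that a member was unchanged. The share of genes called was 0 of 15575 in B cells, 0.0492% in plasma cells, 0.00727% in T cells, 0.135% in macrophages, 0.159% in dendritic cells and 0.0850% in erythroid cells. In B cells, where edgeR called no gene, 861 genes had an unadjusted p under 0.05 and DESeq2 called 1 member. E2f8 was among the 861, with 2.42 and 1.97 CPM in WT and 8.32 and 8.48 CPM in D3TA (log2 fold change 1.99 ± 0.28, adjusted p = 0.844), and the groups were apart. Specific granule genes of immature neutrophils summed to 0.505 and 0.221 per 10000 UMIs in the B cell gate of WT and 6.72 and 10.6 in that of D3TA, and their part in this value was not tested. From 1.39% to 7.33% of B cells were cycling, more in each D3TA library than in each WT library. In erythroid cells, 61.4% and 69.6% were cycling in WT and 61.6% and 86.3% in D3TA. E2f8 had overlapping groups there (92.0 and 143 CPM against 108 and 134 CPM), as did Ccne1 and Ccne2. E2f1 did not overlap, at 25.05 and 36.6 CPM against 56.9 and 54.2 CPM (log2 fold change 0.75 ± 0.28, unadjusted p = 0.0257, edgeR adjusted p = 1), nor did Rbl1, at 88.5 and 85.8 CPM against 92.6 and 127.8 CPM (0.25 ± 0.22), and neither was called.

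The D3TA difference itself was compared between classes by an interaction test with library as a block. This test was added after seeing the data, and only monocytes and the neutrophil lineage were set against B cells. Between monocytes and B cells (3.68% of genes called), the differences of Rbl1 and Ccne1 were larger in monocytes, by 1.52 ± 0.38 and 9.94 ± 2.56 on the log2 scale (edgeR adjusted p = 0.0295 and 0.0341). The Ccne1 value rests on 0 UMIs in WT monocytes and is no measure of size. Between the neutrophil lineage and B cells (12.0% called), Rbl1 alone was called (1.66 ± 0.38, edgeR adjusted p = 0.0087). B cells held Rbl1 at 39.9 and 35.9 CPM in WT and 40.8 and 43.3 CPM in D3TA. Without 1 library the Rbl1 call against monocytes was lost in 3 of 4 cases (without WT replicate 1, WT replicate 2 or D3TA replicate 1), the Ccne1 call in all 4, and the Rbl1 call against neutrophils when WT replicate 1 (1.29, adjusted p = 0.105) or D3TA replicate 2 (1.51, adjusted p = 0.0505) was left out.

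Other genes of the pathway, from 5 lists, were read in the same fits. Of 37 E2F target genes of S phase entry, 22 were higher and none lower in D3TA whole spleens, with a median log2 fold change of 1.18 against -0.0031 over all genes; Ccna2 (cyclin A2, 2.24 ± 0.24) and Mcm7 (a subunit of the replicative helicase, 1.38 ± 0.16) were among them. In monocytes all 37 were higher (median 2.85 against 0.014) and in the neutrophil lineage 32 (median 1.83 against 0.16). Of 12 further E2F, DP and MuvB genes, 3 were higher in whole spleens: Foxm1 (2.33 ± 0.21), a transcription factor of G2 and mitosis genes, Tfdp1 (1.83 ± 0.18), the DP partner of E2Fs, and Mybl2 (1.38 ± 0.19). Cdc25a, the phosphatase that activates CDK2, and Cdk2 were the 2 of 10 cyclin D and CDK genes called, Cdkn2c (p18, 1.69 ± 0.31) the 1 of 7 CDK inhibitor genes, and Cdc6 and Cks1b the 2 of 9 tested genes for cyclin E turnover and CDK2 substrates. Ccnd3 itself was not called (adjusted p = 0.675), and UMI counts do not show the substitution.

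The target genes were also read along the D3TA neutrophil stages. From precursors to immature cells 30 of 37 target genes were lower and 1 higher (median -0.91 against 0.06 over all genes), with Mcm3 at -1.56 ± 0.13, while, of the members, E2f1 was called lower, E2f2, E2f7, E2f8, Rb1, Rbl1 and Rbl2 were called higher and E2f3, Ccne1 and Ccne2 were not called. The target genes and the members were not compared by a test. Cdk6 and Cdk4, the partners of cyclin D, were lower (-3.12 ± 0.13 and -3.09 ± 0.13), whereas Ccnd3 was higher (1.84 ± 0.13), and all 4 CDK inhibitor genes tested were higher, among them Cdkn2d (2.12 ± 0.14) and Cdkn1b (p27, 1.74 ± 0.14). From immature to mature cells all 37 target genes were lower (median -3.21 against -0.12), and Ccnd3 was higher again (1.36 ± 0.12). In erythroid cells all 37 were higher than in the other classes (median 3.12 against -0.09), together with the E2F gene E2f4 (2.66 ± 0.12) and the DP gene Tfdp2 (4.30 ± 0.17). Since 20 of the 37 are the S markers, only the other 17 were read by state. All 17 were higher in S over all cells, with a median of 3.84 against -0.10, where 61.0% of all genes were called. The state was set by genes of the same list, so this rise is a description only.

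Likeness of pattern was measured by Pearson's r of log2(CPM + 1) over 35 sums of a library and a class, among 6860 genes, as a description, since the sums share libraries and depth. E2f8 was most like Esco2 (0.959), a gene of sister chromatid cohesion, and E2f7 like the DNA glycosylase gene Neil3 (0.951); the 2 atypical genes were nearly as like each other (0.9498). Ccne2 was most like Hmgb3 (0.931) and Ccna2 (0.929), E2f1 like Cks1b (0.898), E2f2 like Aurkb (0.888), E2f3 like Pola1 (0.863) and Ccne1 like Cenpk (0.883), most of them genes of replication or mitosis. Of the pocket protein genes, Rbl2 was most like Rasa1 (0.926), Rb1 like the non-coding RNA gene Zfas1 (0.820) and Rbl1 like Rdx (0.915). Rbl1 was next most like Rfwd3 (0.902) and Rbbp4 (0.902), the latter one of the E2F, DP and MuvB genes above. Among the members, Rbl1 was most like E2f3 (0.693). Rbl2 and E2f1 ran against each other (-0.600), and the cyclin E genes were less alike (0.777) than the atypical E2Fs.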

How the data were processed

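Spleen cells of 4 mice, 1 library each, were measured by droplet single-cell RNA sequencing (10x GEM-X). The authors deposited filtered matrices of UMI counts per gene and cell, written by Cell Ranger (version 7.0.1, per the file headers) on mm10, per the submitters' processing notes. The counts were not normalized by the authors, per the labels and the whole-number values. The 10 members, the pathway lists and the markers were chosen with earlier results of these data known.

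Cells with at least 500 UMIs and 250 genes and at most 10% mitochondrial UMIs were kept, and doublets were marked with Scrublet in scanpy 1.11.5 (expected rate 6%). Its automatic threshold marked 0 cells in WT replicate 1, where the mean of the other 3 thresholds replaced it. A cell entered a class when the summed markers of 1 class alone, with at least 3 detected, passed a threshold per 10000 UMIs (B cell 50, T cell 30, monocyte 25, macrophage 45, dendritic cell 32, plasma cell 90, erythroid 180, neutrophil azurophil 180, specific 400 or mature 128 genes). The erythroid gate was also passed by 20 per 10000 UMIs of its markers other than globins, with at least 3 detected. Erythroid cells with globins of at least 180 per 10000 UMIs were globin-rich, and the others globin-poor. These thresholds were set after the marker sums were seen. Cycle states were set in cells thinned to 1000 UMIs, a step added to the planned design, and cells below 1000 UMIs have no state; 32.9% of the cells of WT replicate 1 and 3.35% to 4.83% of the others were below.

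Counts were summed per library and group and tested in edgeR 4.0.16 (R 4.3.3) with TMM factors, filterByExpr and two-sided quasi-likelihood tests; classes needed 50 cells in each library and states 20. DESeq2 1.42.0 served as an alternative. Comparisons between classes, stages and states had the library as a block. All 10 members were named in each comparison; of each list, up to 4 called genes with the smallest p were eligible for naming, with Ccnd3, Cdk2, Cdk4, Cdk6, E2f4 and Tfdp1, and for likeness the 3 genes with the highest correlation of at least 20 CPM on average. Fitted log2 fold changes of members are printed only where the unadjusted p was under 0.05, except for Rbl1 between the genotypes in erythroid cells. The fits were tested on simulated counts with 200 changed genes each. The 95% intervals of count ratios are exact, and replicate numbers of WT and D3TA name separate mice. With 2 mice a genotype, p-values measure the spread between these libraries. Alternatives were other scaling factors, no filter on low counts, stricter cells, gates and states, classes taken from clusters, doublets kept, DESeq2, a block for the replicate number and each library left out in turn.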

Additional observations from a re-analysis of the deposited data

Results flagged for a closer look

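The difference of the D3TA effects between classes passed the interaction test for 3 results. The test was added after seeing the data and was fitted against B cells only. For Rbl1, the gene of the pocket protein p107, the D3TA effect was larger in monocytes than in B cells by 1.52 on the log2 scale (SE 0.38, edgeR adjusted p = 0.0295). For Rbl1 in the neutrophil lineage it was larger by 1.66 (SE 0.38, edgeR adjusted p = 0.0087). For Ccne1 in monocytes it was larger by 9.94 (SE 2.56, edgeR adjusted p = 0.0341), a value fitted against 0 UMIs in both WT libraries. Without 1 library, Rbl1 in monocytes was called in 1 of 4 refits, Ccne1 in 0 of 4 and Rbl1 in neutrophils in 2 of 4. In both myeloid classes the share of cycling cells differed between the genotypes as given above, and its part in these differences was not tested. No group had 4 samples, so no sample was tested for standing apart from its group.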

How the results depend on the processing

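Of 182 calls for a member, 84 were refitted without 1 library at a time, and 29 of these were lost without at least 1; a lone library of a genotype was then assumed to vary like the others. Single-gene values kept direction and call in 1576 cases, lost the call in 109, gained it in 70 and reversed in 11; the cause was not tested. Without thinning (added after seeing the data) the reversed log2 values were, over all cells, -0.052 for E2f2 in S, and -0.19 for E2f3 and -0.028 for Ccne1 in S against G2/M; in B cells 0.012 for Rb1 in S, and -0.091 for E2f1, -0.40 for E2f3 and -0.17 for Ccne2 in S against G2/M; -0.0093 for E2f8 in S against G2/M of immature neutrophils; and 0.85 for Rb1 in G2/M of erythroid cells. With 5 markers, erythroid Rb1 was 0.50 in S and 0.28 in G2/M.

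The number of members called in whole spleens, 4, was 7 with DESeq2 and 2 to 7 with 1 library left out. Among cells without cycle markers 0 became 2 with DESeq2, 1 with doublets kept, 1 without thinning and 0 to 3 with a library left out; in B cells 0 became 1 with DESeq2 and 0 to 3. In the neutrophil lineage 5 became 8 without a count filter and 4 to 8 with a library left out. Against the other classes, B cells went from 7 to 4 with strict cells and 4 to 6 with a library left out, plasma cells from 3 to 1 to 3, and monocytes from 4 to 2 to 5. Macrophages went from 5 to 2 with median-ratio factors, 3 without a filter, 3 with a stricter gate and 1 to 3 with a library left out. Dendritic cells went from 1 to 2 with strict cells, 3 with a stricter gate and 0 to 1. The interaction of monocytes and B cells went from 2 to 5 without a filter and 0 to 1 with a library left out, that of neutrophils and B cells from 1 to 2 with strict cells or doublets kept and 0 to 4. Without thinning, calls in B cells between S and no markers went from 10 to 5. Those between S and G2/M went from 2 to 6 (4 without a filter). In erythroid cells without thinning, S went from 8 to 3 (5 with 5 markers) and G2/M from 7 to 1 (3 with 5 markers). All these counts, and those under an alternative elsewhere, stand without the share of all genes called in the same alternative. Whether a changed count is particular to the members was not tested.

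The labels do not say whether equal replicate numbers pair the mice. Deviations of same-numbered libraries correlated at -0.083, and with 2 libraries a genotype this 1 value cannot exclude a shared batch. With the replicate block, 8 members were called in the neutrophil lineage, 1 among cells without cycle markers, 4 in whole spleens and 6 in monocytes. Of the 8 classes with fits, depth limits macrophages most, where 3 UMIs correspond to 8.73, 14.6, 4.25 and 12.5 CPM in WT replicates 1 and 2 and D3TA replicates 1 and 2.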

Other observations

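Classes too small for a fit were described by level alone. Natural killer cells had 271 and 182 CPM of Rbl2 in the WT libraries and 216 CPM in D3TA replicate 2, above the T cell values of the same libraries. The basophil or mast cell gate held enough cells in D3TA only, where E2f8 stood at 206 and 357 CPM and E2f2 at 127.6 and 130.4 CPM, the highest E2f8 values of any class in these libraries. Cells that passed no gate, 1626 and 306 in WT and 1247 and 844 in D3TA, had 18.1%, 15.9%, 33.4% and 35.8% cycling and E2f1 at 16.9, 19.6, 31.8 and 29.3 CPM, above the whole-spleen level in each library.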
